A study of Saccharomyces cerevisiae with 6 samples.

Results

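The genes described here are 10 budding yeast genes for taking up and breaking down ammonium, urea, allantoin, allantoate and proline, out of 6692 gene identifiers measured. They were chosen by systematic name, by a rule that holds no expression values: the ammonium permease genes MEP1 (YGR121C), MEP2 (YNL142W) and MEP3 (YPR138C), the urea genes DUR1,2 (YBR208C, DUR12 in RefSeq) and DUR3 (YHL016C), the allantoin pathway genes DAL2 (YIR029W), DAL3 (YIR032C), DAL5 (YJR152W) and DAL7 (YIR031C), and the proline permease gene PUT4 (YOR348C). The choice was made with earlier results of these data known. All 10 were found in the files and all 10 passed the filter on low counts. Gene counts came from 6 RNA-seq libraries of a MATa W303 strain that carries ade2-1 and trp1-1, his3-11,15, a leu2 allele with the mutations 3 and 112, and also ura3-1 and can1-100. Cultures were in exponential growth in YPD, a rich medium with glucose, at 23 °C. Both groups carried RIO1-AID, which fuses the essential kinase Rio1 to an auxin-inducible degron, and PADH1-OsTIR1, a plant F-box protein expressed from the ADH1 promoter that sends the tagged protein to the proteasome when auxin is present. The 3 Rio1-depleted libraries came from cells with 500 µM auxin for 1 h whereas the 3 control libraries had no auxin added. The sample titles name the controls wild type, while their strain description gives the degron strain. No library had auxin with intact Rio1, so an effect of auxin and an effect of Rio1 loss cannot be told apart. Nothing in the labels says that the libraries of a group are separate cultures, so p-values here reflect the spread among these libraries, part of which may be technical.

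Budding yeast take ammonium or glutamine in preference to poorer nitrogen sources. The genes for poorer sources are kept low in rich medium by nitrogen catabolite repression, in which the GATA factors Gln3 and Gat1 activate transcription from GATAAG elements, Ure2 holds Gln3 out of the nucleus, and Dal80 and Gzf3 act as GATA repressors. Urea and allantoin genes are also switched on by the inducer allophanate through Dal81 and Dal82. Mep2 is the high-affinity ammonium permease and also signals in filamentous growth, whereas Mep1 and Mep3 have lower affinity.

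The DNA upstream of these genes is shown first because GATAAG elements are the known control feature of genes under nitrogen catabolite repression. Among the 6000 protein-coding genes with 500 bases of nuclear genome before the start codon, 22.8% held GATAAG at least once on either strand. Of the 10 genes, 9 held it, and PUT4 did not. MEP2 had 7 copies, the highest number of the 10, and of the 6000 genes it was the only 1 with at least 7. MEP3 and DAL3 had 5 copies each, DUR1,2, DAL5 and DAL7 had 3, MEP1 and DAL2 had 2, and DUR3 had 1. Within 300 bases, 6 of the 10 held it, against 14.7% of 6001 genes. In that shorter window MEP2 held 1 copy and DAL3 held 5, so the rank of MEP2 depends on the window. The shorter form GATAA, which every GATAAG contains, was found at least once before 78.7% of all genes and before all 10 of these, in 8 copies before MEP2 and 5 before DUR3. Neighbouring copies can share their end base, as in the MEP2 and DAL3 sequences. The sequences of the 2 genes called changed (MEP2 and DUR3) and of DAL3, which had the most GATAAG copies of the 10 within 300 bases, are printed below from the RefSeq R64 genome of strain S288C, the assembly that sacCer3 names. They are written 5′ to 3′ on the strand of the gene, with GATAAG or GATAA, or the same letters read on the other strand (CTTATC or TTATC), in capitals. The MEP2 stretch (chrXIV:356953-357252, plus strand) covers bases 500 to 201 before the start codon and overlaps YNL143C. The DUR3 stretch (chrVIII:74245-74544, minus strand) and the DAL3 stretch (chrIX:415618-415917, minus strand) cover bases 300 to 1.
MEP2: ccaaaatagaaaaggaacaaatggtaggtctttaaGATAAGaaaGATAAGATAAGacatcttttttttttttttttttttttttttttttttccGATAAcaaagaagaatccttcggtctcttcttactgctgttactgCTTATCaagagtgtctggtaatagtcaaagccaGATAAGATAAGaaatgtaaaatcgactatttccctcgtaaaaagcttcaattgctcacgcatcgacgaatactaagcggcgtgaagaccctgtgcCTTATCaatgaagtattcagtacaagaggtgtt
DUR3: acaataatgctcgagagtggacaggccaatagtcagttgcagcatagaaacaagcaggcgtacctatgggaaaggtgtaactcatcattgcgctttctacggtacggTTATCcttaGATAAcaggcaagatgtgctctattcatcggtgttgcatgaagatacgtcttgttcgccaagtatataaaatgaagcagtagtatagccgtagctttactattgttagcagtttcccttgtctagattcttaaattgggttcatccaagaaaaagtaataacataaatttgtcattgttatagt
DAL3: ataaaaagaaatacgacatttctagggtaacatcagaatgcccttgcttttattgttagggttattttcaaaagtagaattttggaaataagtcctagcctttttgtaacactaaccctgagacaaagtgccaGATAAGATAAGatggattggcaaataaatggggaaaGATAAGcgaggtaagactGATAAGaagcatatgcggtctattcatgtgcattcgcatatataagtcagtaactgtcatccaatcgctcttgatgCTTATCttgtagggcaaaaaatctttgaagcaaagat
A match says only that these letters are present, and factor binding was not measured. W303 can differ from S288C in these windows.

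Of the 10 genes, 1 was higher and 1 lower in Rio1-depleted than in control libraries. The urea permease gene DUR3 rose 2.24-fold and the high-affinity ammonium permease gene MEP2 fell 2.25-fold, while the other 8 did not pass the test. These 2 calls are 20% of the 10 genes, against 28.3% of the 5195 genes tested (edgeR quasi-likelihood test, Benjamini-Hochberg adjusted p under 0.05; 14.1% of the tested genes were higher and 14.1% lower). An unadjusted p under 0.05 was reached by 3 of the 10, against 38.5% of all tested genes. The groups did not overlap for 2 of the 10, the same DUR3 and MEP2, against 40.6% of all tested genes. The median log2 fold change of the 10 was 0.0021 and that of all tested genes 0.012, with 5 values above and 5 below 0. The 10 genes together took 0.0395%, 0.0385% and 0.0486% of the gene counts in Rio1-depleted libraries 1 to 3 and 0.0413%, 0.0376% and 0.0387% in control libraries 1 to 3. In RNA from whole cultures, fewer cells using a gene and less RNA per cell cannot be told apart.

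Gene counts per library ran from 683896 to 1671136, so that 1 read was worth 0.671 to 1.44 CPM (reads relative to the TMM-scaled library size, times 1000000). The counts of the 10 genes ran from 4 to 157 reads a library. Open reading frames inside the rDNA (YLR154 series) took 4.12% of the reads in genes of depleted library 2, 1.48% of those of control library 1 and at most 0.194% elsewhere, and the MEP2 and DUR3 calls were kept without depleted library 2 (log2 fold changes of -1.15 and 1.37). Of 4 MATa marker genes, STE2, MFA2 and BAR1 stood at 109 CPM or more in every library and the short gene MFA1 at 2.87 to 10.7 CPM, while the 3 alpha-specific genes MF(ALPHA)1, MF(ALPHA)2 and STE3 stood at 10.1 CPM or less. RIO1 mRNA itself was higher in depleted libraries (log2 fold change 0.78 ± 0.17, SE), which does not check depletion of the protein.

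**Figure D1:**
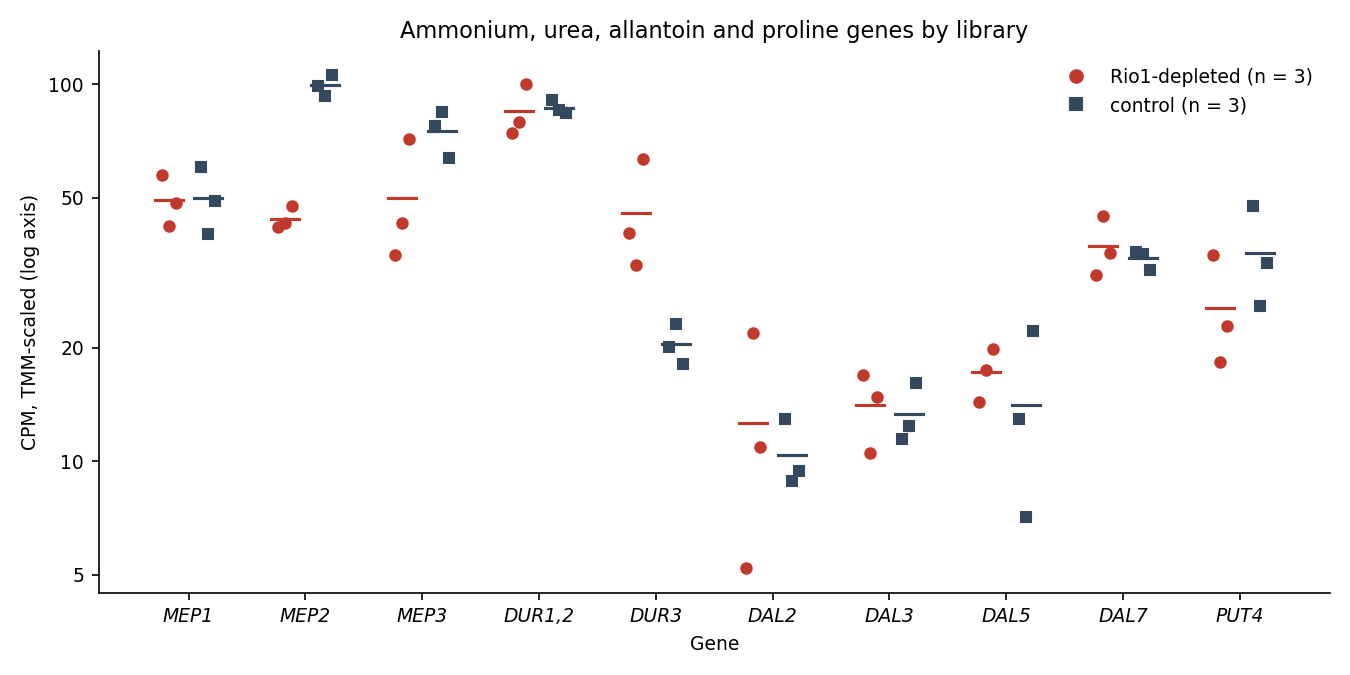
Level of each of the 10 genes in every library, in TMM-scaled CPM on a log axis. Red circles are the 3 Rio1-depleted and dark squares the 3 control libraries, bars are group means, and the groups are fully apart only for MEP2, lower in depleted cells, and DUR3, higher in them.

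Among the ammonium permease genes, MEP2 fell, MEP1 stood at nearly the same mean in both groups and MEP3 did not pass the test. MEP2 (chrXIV:357453-358952) had 41.7, 42.8 and 47.5 CPM in Rio1-depleted libraries 1 to 3, against 99.1, 93.2 and 105 CPM in control libraries 1 to 3. Every depleted library lay below every control library. Its mean was 44.0 ± 3.10 CPM in depleted and 99.2 ± 6.09 CPM in control libraries (SD, n = 3 each), a log2 fold change of -1.17 ± 0.18 (SE) with an edgeR adjusted p of 4.314e-05. This is the gene with the 7 GATAAG copies in the sequence above. Within 500 bases, MEP3 and DAL3 had 5 copies each and were not called, while DUR3 had 1 and was called higher. A link between copy number and change was not tested.

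MEP1 (chrVII:731449-732927) had 57.3, 41.9 and 48.5 CPM in Rio1-depleted and 60.3, 40.0 and 49.0 CPM in control libraries. The groups overlapped throughout, and the log2 fold change was -0.0049 with a 95% interval of -0.47 to 0.46 (edgeR adjusted p = 0.989). MEP3 (chrXVI:810984-812453) had 35.2, 42.8 and 71.3 CPM in Rio1-depleted and 77.5, 84.3 and 63.8 CPM in control libraries. Depleted libraries 1 and 2 lay below all controls, and depleted library 3 lay among them. The log2 fold change of MEP3 was -0.57, with a 95% interval of -1.05 to -0.080 and an edgeR adjusted p of 0.0767. Without depleted library 3 it was -0.92 (adjusted p = 0.00548), so that library decides whether MEP3 is called, and with no count filter the adjusted p was 0.0492. Reads that align to more than 1 place are not in these counts. The coding sequences of MEP1 and MEP3 are 69.7% identical, with a longest shared run of 20 bases, and that of MEP2 is 54.2% identical to MEP1 and 55.3% to MEP3.

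The make-up of the MEP reads gives the same comparison without any scaling between libraries. MEP2 gave 31.1%, 33.6% and 28.4% of the reads of the 3 MEP genes in Rio1-depleted libraries 1 to 3, against 41.8%, 42.9% and 48.3% in control libraries 1 to 3. MEP1 gave 42.7%, 32.9% and 29.0% in depleted and 25.5%, 18.4% and 22.5% in control libraries. The groups did not overlap for either share. The 3 shares of a library make up the whole, so a lower MEP2 share raises the others and the MEP1 share is not a separate result. In CPM the MEP1 groups overlapped, with a log2 fold change of -0.0049. MEP3 gave 26.2%, 33.6% and 42.6% in depleted and 32.7%, 38.8% and 29.2% in control libraries, with the groups overlapping. Each share rests on 103 to 325 MEP reads a library. Per kilobase, MEP2 stood at 0.897 ± 0.157 times MEP1 in depleted and 2.01 ± 0.353 times in control libraries (SD, n = 3 each), a difference of -1.17 on the log2 scale. The exact two-sided permutation p was 0.1, the smallest that 3 against 3 allows (0.2 after Benjamini-Hochberg adjustment over the 4 within-library ratios compared, which were chosen after the values were seen). None of the 4 could thus reach 0.05. The ratio of MEP2 to MEP3 was 0.932 ± 0.258 in depleted and 1.32 ± 0.274 in control libraries (exact permutation p = 0.2, adjusted 0.267), with the groups overlapping. The ratio of MEP3 to MEP1 was 1.04 ± 0.431 in depleted and 1.58 ± 0.475 in control libraries (exact permutation p = 0.3, adjusted 0.3).

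**Figure D2:**
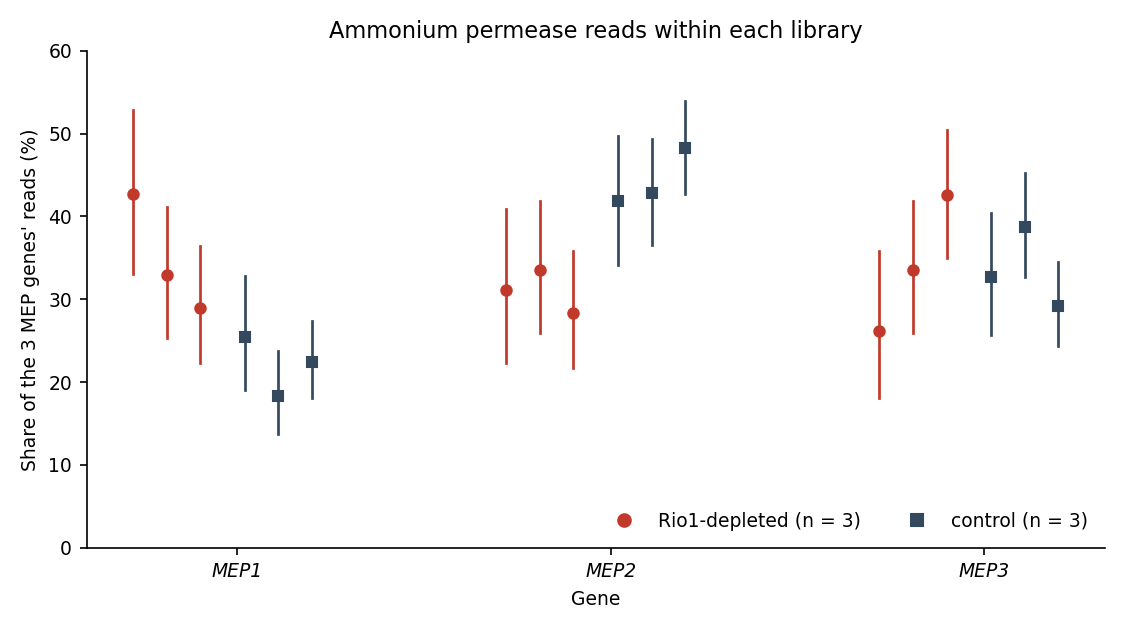
Share of the reads of MEP1, MEP2 and MEP3 that each gene took in each library, in percent, with exact (Clopper-Pearson) 95% binomial intervals that cover counting error only. MEP2 took 28.4% to 33.6% in the 3 Rio1-depleted libraries (red circles) and 41.8% to 48.3% in the 3 control libraries (dark squares).

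Of the urea genes, the permease gene rose while the enzyme gene did not pass the test. DUR3 (chrVIII:72037-74244), which encodes the plasma membrane urea permease, had 40.4, 33.2 and 63.4 CPM in Rio1-depleted libraries 1 to 3, against 20.1, 23.1 and 18.1 CPM in control libraries 1 to 3. Every depleted library lay above every control library, with library 3 the highest. Its mean was 45.6 ± 15.8 CPM in depleted and 20.4 ± 2.50 CPM in control libraries (SD, n = 3 each), a log2 fold change of 1.16 ± 0.29 (SE) with an edgeR adjusted p of 0.00489. Without depleted library 3 the log2 fold change was 0.83 and the call was lost (adjusted p = 0.0543). DUR3 had 14 to 64 reads a library.

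DUR1,2 (chrII:636703-642210), which encodes the urea amidolyase that splits urea to ammonium and carbon dioxide, had 74.2, 79.5 and 100.0 CPM in Rio1-depleted and 90.4, 85.2 and 83.9 CPM in control libraries. The groups overlapped, and the log2 fold change was -0.020 with a 95% interval of -0.37 to 0.33 (edgeR adjusted p = 0.943). Per kilobase, DUR3 stood at 1.36, 1.04 and 1.58 times DUR1,2 in depleted libraries 1 to 3, against 0.554, 0.676 and 0.539 times in control libraries 1 to 3. The permease gene was thus above the enzyme gene in every depleted library and below it in every control library. The difference of the log2 ratios was 1.16 (exact two-sided permutation p = 0.1, the smallest possible, and 0.2 adjusted over the 4 ratios).

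None of the 4 allantoin pathway genes passed the test in edgeR, where 0 had an unadjusted p under 0.05, or in DESeq2. DAL2 (chrIX:410807-411838), the allantoicase gene, had 5.21, 21.8 and 10.9 CPM in Rio1-depleted and 12.9, 8.88 and 9.40 CPM in control libraries. Depleted library 1 was the lowest of the 6 and depleted library 2 the highest, on 4 and 25 reads. The log2 fold change was 0.41 (95% interval -0.51 to 1.33), and without depleted library 2 it turned to -0.27. DAL3 (chrIX:415030-415617), the ureidoglycolate lyase gene with 5 GATAAG copies in the sequence above, had 16.9, 10.5 and 14.8 CPM in depleted and 11.5, 12.4 and 16.1 CPM in control libraries. The groups overlapped, with a log2 fold change of 0.0091 (95% interval -0.74 to 0.76).

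DAL7 (chrIX:413015-414679), which encodes a malate synthase that uses the glyoxylate released from allantoin, had 31.2, 44.6 and 35.6 CPM in Rio1-depleted and 35.9, 35.5 and 32.2 CPM in control libraries. Depleted library 1 lay below all controls, library 2 above them and library 3 among them, with a log2 fold change of 0.13 (95% interval -0.37 to 0.63). DAL5 (chrX:719666-721297), the allantoate permease gene, had 14.3, 17.5 and 19.8 CPM in depleted and 12.9, 7.10 and 22.1 CPM in control libraries. Here the controls spread more widely than the depleted libraries, on 8 to 33 reads, with a log2 fold change of 0.24 (95% interval -0.57 to 1.04). The edgeR adjusted p of the 4 genes ran from 0.534 for DAL2 to 0.988 for DAL3. MLS1, the glyoxylate cycle paralog of DAL7 (74.6% identical in coding DNA), stood at 10.4, 10.5 and 17.8 CPM in depleted and 4.31, 6.21 and 8.06 CPM in control libraries, with a log2 fold change of 0.97 that did not pass the test (edgeR adjusted p = 0.0887). MLS1 was called with libraries scaled by their totals only (log2 fold change 1.28, adjusted p = 0.0199).

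DAL2, DAL7 and DAL3 lie in a cluster on chromosome IX with 3 further genes, in the order DAL1 (allantoinase), DAL4 (allantoin permease), DAL2, DCG1, DAL7 and DAL3. DAL1 and DAL4 did not pass the count filter and were not tested. DAL1 had 3, 6 and 4 reads in Rio1-depleted and 3, 3 and 10 reads in control libraries, and DAL4 had 1, 9 and 16 reads in depleted and 3, 11 and 10 reads in control libraries. The exact permutation p of their mean CPM was 0.8 for each. DCG1, whose product is not well characterised, had 20.8, 15.7 and 14.8 CPM in depleted and 28.7, 7.10 and 15.4 CPM in control libraries (log2 fold change 0.091, edgeR adjusted p = 0.892). The groups overlapped for each of the 6 genes, of which 2 had too few reads to be tested, while 40.6% of all tested genes had groups that did not overlap. Per kilobase, the cluster was uneven: DAL1 averaged 3.16 ± 0.548 in depleted and 3.30 ± 1.47 in control libraries, whereas DAL3 averaged 24.0 ± 5.59 in depleted and 22.7 ± 4.16 in control libraries (CPM per kilobase, SD, n = 3 each).

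**Figure D3:**
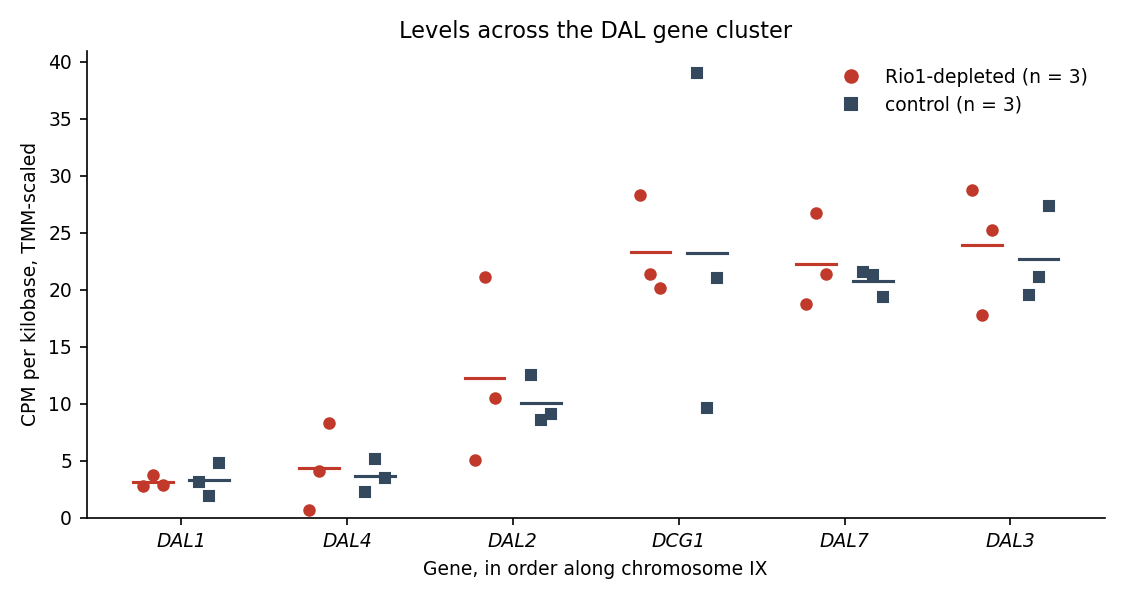
TMM-scaled CPM per kilobase of the 6 genes of the DAL cluster, in their order along chromosome IX. Red circles are the 3 Rio1-depleted and dark squares the 3 control libraries, with bars at the means, and the groups overlap for all 6 genes.

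PUT4 (chrXV:986899-988782), the proline permease gene and the 1 of the 10 with no GATAAG within 500 bases, had 35.2, 18.4 and 22.8 CPM in Rio1-depleted and 47.4, 25.7 and 33.6 CPM in control libraries. Depleted library 1 lay within the control range and the other depleted libraries below it. Its log2 fold change was -0.48 ± 0.30 (SE), with a 95% interval of -1.12 to 0.16 and an edgeR adjusted p of 0.265. Of the 8 genes not called, 4 (MEP1, DUR1,2, DAL3 and DAL7) had a 95% interval within a 2-fold change either way. The interval of the other 4 (MEP3, DAL2, DAL5 and PUT4) reached past 2-fold in 1 direction, so these counts do not bound their change to 2-fold.

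The order of levels among the 10 genes, per kilobase of gene, was led by the MEP genes in both groups. In depleted libraries MEP3 (33.8 CPM per kilobase), MEP1 (33.3) and MEP2 (29.3) were followed by DAL3, DAL7, DUR3, DUR1,2, PUT4, DAL2 and DAL5 (10.5), and every neighbour in that order overlapped the next. In control libraries MEP2 (66.2 CPM per kilobase) stood above MEP3 (51.2) and MEP3 above MEP1 (33.6) with no overlap between libraries. DAL3, DAL7, PUT4 and DUR1,2 came next among the controls, each overlapping its neighbour. DUR1,2 (15.7) and DAL2 (10.1) did not overlap there, and DAL2, DUR3 (9.26) and DAL5 (8.61) overlapped at the low end. DUR3 was thus the sixth in level in depleted libraries and the ninth in control libraries.

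Other genes of nitrogen use were taken from a list of 37 that holds regulators, ammonium assimilation, other poor nitrogen sources and permease control. It also holds the rest of the DAL cluster, ammonia export genes and MLS1. The list was drawn up with earlier results of these data known, so its share of calls is not an unbiased comparison with all genes. Of the 37, 30 were tested, 5 were higher and 9 lower, together 46.7% of the tested genes, against 28.3% of all tested genes. Their median log2 fold change was -0.18. The largest falls were in GLN1, AGP1 and GAP1. GLN1, glutamine synthetase, had 145, 144 and 146 CPM in Rio1-depleted and 887, 939 and 959 CPM in control libraries, with no overlap (log2 fold change -2.68 ± 0.12, SE; edgeR adjusted p = 1.865e-11). All 5 genes of ammonium assimilation were called. GDH1, the main NADP-dependent glutamate dehydrogenase, and GLT1, glutamate synthase, fell with log2 fold changes of -1.09 and -0.77. GDH3, the paralog of GDH1, and GDH2, the NAD-dependent enzyme that releases ammonium from glutamate, rose with log2 fold changes of 1.38 and 0.76 (GDH2 was named after its value was seen). Reads shared by GDH1 and GDH3 are not counted, so the contrast of that pair is uncertain.

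Of 9 genes for other nitrogen sources, 7 were tested, 1 was higher and 2 were lower, against 14.1% of all tested genes in each direction. The general and broad-range amino acid permease genes GAP1 and AGP1 fell with log2 fold changes of -1.87 and -1.92. PUT2, the second enzyme of proline breakdown inside mitochondria, rose (0.57), while the permease gene PUT4 did not pass the test. PUT1, the enzyme before it, had 12, 2 and 17 reads in Rio1-depleted and 2, 6 and 12 reads in control libraries and was not tested (named after its values were seen). Of the activators, PUT3, which turns on PUT1 and PUT2, rose. It had 216, 232 and 209 CPM in depleted and 113, 110 and 130 CPM in control libraries (log2 fold change 0.88 ± 0.13, SE; edgeR adjusted p = 2.4e-05). UGA3, the activator of the GABA genes, fell (-0.95, edgeR adjusted p = 0.0268), a call lost when libraries were scaled by their totals only, with no TMM, and without depleted library 1 or 3 or control library 1 or 3. The 2 activators of the urea and allantoin genes, DAL81 and DAL82, were not called, at -0.42 and 0.38 on the log2 scale with edgeR adjusted p of 0.0604 and 0.331 (named after their values were seen). The groups overlapped for DAL82 but not for DAL81, against 40.6% of all tested genes with no overlap.

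Among the GATA regulators, 4 of 5 were tested and 1 was called, as lower, which is 25% of the 4, near the 28.3% of all tested genes. GAT1, the activator, had 37.8, 55.1 and 41.6 CPM in Rio1-depleted and 67.5, 69.3 and 83.9 CPM in control libraries, with no overlap (log2 fold change -0.71 ± 0.20, SE; edgeR adjusted p = 0.0127). The call was lost with library totals only (adjusted p = 0.125) and without control library 3 (adjusted p = 0.0863). GLN3, GZF3 and URE2 had log2 fold changes of -0.13, -0.24 and -0.37 and did not pass the test. The groups overlapped for GLN3 and GZF3 but not for URE2, while 40.6% of all tested genes had groups that did not overlap. DAL80, the GATA repressor, had at most 5 reads in a library and was not tested (these 4 were named after their values were seen). Of 7 genes that act on permeases after transcription, 2 were called, a share of 28.6% that is near the 28.3% of all tested genes. BUL1, an adaptor of the ubiquitin ligase Rsp5, rose (0.68) and RSP5 itself fell (-0.37, edgeR adjusted p = 0.0145), a fall that was not called with library totals only (-0.055). BUL2, on the same list, did not pass the test (-0.42, edgeR adjusted p = 0.112, named after its value was seen). Its groups did not overlap, against 40.6% of all tested genes with no overlap. NPR1, the kinase that keeps Mep2 active, and PAR32, the inhibitor of Mep1 and Mep3, did not pass the test (-0.17 and 0.023, named after their values were seen). Of 3 putative ammonia export genes, ATO3 was the 1 tested and was lower (-0.51, edgeR adjusted p = 0.0444), though its groups overlapped. The ATO3 call was lost in 7 of 13 alternatives, at -0.19 with library totals only and -0.33 without depleted library 2, and at -0.52 to -0.47 with DESeq2, with a mean of at least 50 counts, and without depleted library 3 or control library 1 or 2.

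**Figure D4:**
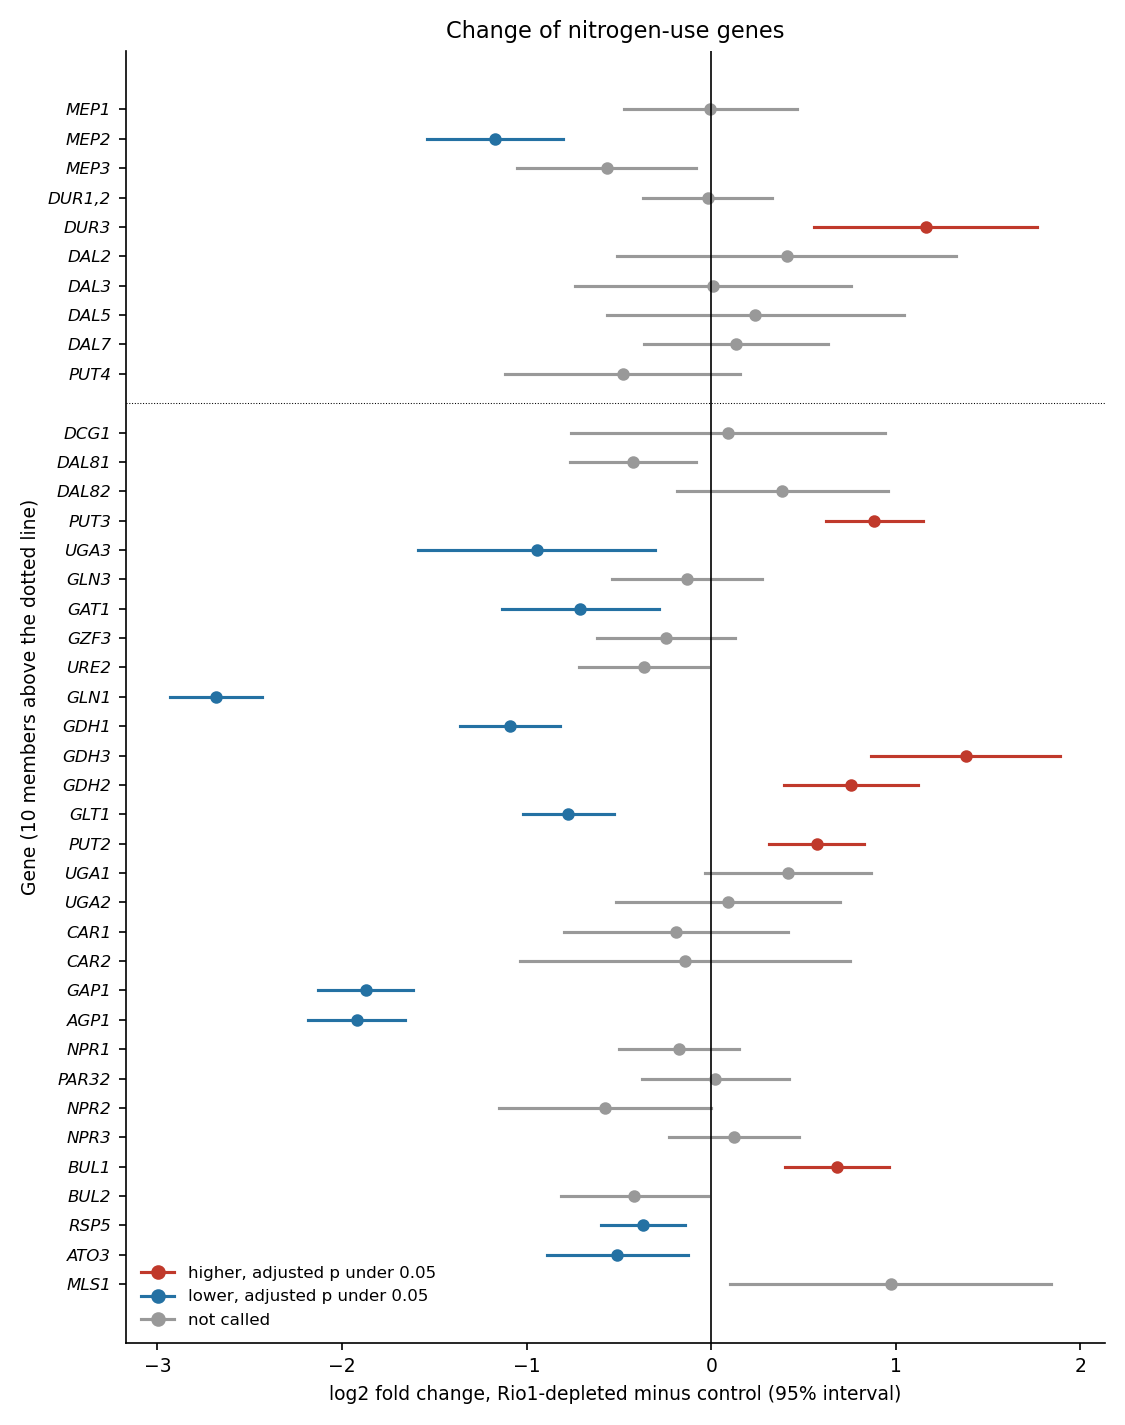
Log2 fold change, Rio1-depleted minus control, with 95% intervals from the edgeR fit (3 libraries per group). The 10 genes for ammonium, urea, allantoin and proline stand above the dotted line, with 1 higher (DUR3, red) and 1 lower (MEP2, blue), and the 30 tested genes of the wider nitrogen list stand below it, with 5 higher and 9 lower.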

How the data were processed

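RNA depleted of rRNA was sequenced in 6 libraries, 3 Rio1-depleted and 3 control, grouped by the protocol field of the labels. The authors deposited raw read counts for each gene and 5 summary rows, which took 64.4% to 77.8% of the entries and were left out. Reads with more than 1 alignment were not in the gene counts. The submitters' processing notes name sacCer3, TopHat2 2.0.8, DESeq and HTSeq. For settings, strand option and gene models, nothing is given in the sources used here. None of the 10 genes overlaps another gene annotated in R64, and 684 identifiers with no match there were not placed.

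The test was edgeR 4.0.16 (R 4.3.3; TMM; filterByExpr, minimum count 10, minimum total 15; glmQLFit and glmQLFTest on the 2 groups; Benjamini-Hochberg over all tested genes). SE is the absolute log2 fold change over the square root of F. DESeq2 1.42.0 was an alternative. Coordinates, lengths and sequences come from R64. The rule for named genes took the 10 genes, DAL1, DAL4, DCG1, RIO1, and up to 4 called genes of each other list by size of change, or its most abundant gene where it held no call. MAT markers checked the strain label. The genes and lists were chosen with earlier results of these data known. Libraries of a group differed by 2.60 to 11.4 in chi-square per degree of freedom, and none were identical.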

Additional observations from a re-analysis of the deposited data

How the results depend on the processing

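The settings tried in turn were library totals only, RLE size factors, no count filter, a mean of at least 50 counts, DESeq2, a replicate block, leaving out the YLR154 rows, and leaving out each library. MEP2 was called lower in 13 of 13 alternatives (log2 fold changes of -1.24 to -0.86) and DUR3 higher in 11 of 12, the exception being without depleted library 3. With a mean of at least 50 counts, 6 of the 10 genes, DUR3 among them, were not tested, and 0 were higher in edgeR (0 also at an unadjusted p under 0.05; DESeq2, which was run on the usual filter, had 1). With no count filter 2 were lower, MEP2 and MEP3, as without depleted library 3. Leaving out 1 library gave 0 to 1 of the 10 higher and 1 to 2 lower, 5 to 6 of the wider list higher and 7 to 9 lower, and 529 to 669 genes of all higher and 591 to 699 lower.

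Library totals only moved the median of all genes up by 0.315, with 1761 higher and 306 lower against 734 and 735, so that 85.2% of calls were higher. The wider list then had 8 higher and 5 lower against 5 and 9, while the 10 genes kept 1 higher and 1 lower. Among the genes taken by the rule for named genes, the signs that turned belonged to genes called in neither setting: with library totals only MEP1 was at 0.31 and DUR1,2 at 0.30, with a mean of at least 50 counts at 0.031 and 0.016, and with no count filter DAL3 was at -0.010. Genes named after their values were seen were not followed singly in these settings. Leaving out 1 library gave log2 fold changes of -0.16 to 0.10 for MEP1, -0.16 to 0.049 for DUR1,2, -0.27 to 0.71 for DAL2, -0.13 to 0.20 for DAL3, -0.12 to 0.85 for DAL5, -0.031 to 0.23 for DAL7 and -0.31 to 0.51 for DCG1.

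The replicate block gave 741 genes higher and 756 lower, and 1 of the 10 higher and 1 lower (edgeR adjusted p = 6.352e-05 for MEP2 and 0.0055 for DUR3), and it changed no call of a gene taken by the rule for named genes. No label says that the numbers mark a shared batch or day, and the deviations of same-numbered libraries from their group means correlated at -0.0568, -0.000788 and 0.0774, so the numbers were not taken as pairs; 1 of 3 depleted libraries correlated best with its own number. With 4 to 64 reads a library for DUR3, PUT4 and the DAL genes among the 10, depth limits what could be seen there.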
